A study of Mus musculus with 5 samples.

Results

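The myosin heavy chain genes described here are Myh1, Myh2, Myh4, Myh7, Myh9, Myh10, Myh11 and Myh14. They were taken by symbol, are 8 of the 32285 genes in each count matrix, and were all found in both matrices. They were read out by single-nuclei RNA sequencing (snRNAseq) of interscapular brown adipose tissue (iBAT) of male mice. The WT and Ucp1-STX4KO matrix holds nuclei of 3-month-old WT littermate controls and of Ucp1-STX4KO mice, in which a Cre driven by Ucp1, a gene active in brown adipocytes, deletes floxed STX4. The aging matrix holds nuclei of C57BL/6J mice of 2, 12 and 24 months. The tissue was homogenized in a way meant to enrich adipocyte nuclei, and nuclei were sorted before loading. The methods give 4 male mice without their division among libraries, so animals cannot be told apart. Barcodes end in a suffix, which parts 2 libraries in the first matrix and 3 in the second, but no label ties a suffix to a genotype or age. No genotype or age was therefore compared, values by suffix stand for libraries of unknown condition, and no p-value was computed.

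Myosin heavy chains are the motor subunits of myosin II. They bind actin, hydrolyse ATP and assemble into filaments, each together with light chains that stiffen or switch the motor. Myh4, Myh1 and Myh2 encode the fast skeletal chains of type IIB, IIX and IIA fibres, and Myh7 encodes the slow chain of type I fibres and of the ventricle. Myh11 is the smooth muscle chain, and Myh9, Myh10 and Myh14 encode the non-muscle chains IIA, IIB and IIC, which serve adhesion, tension and cytokinesis in most cells. Brown adipose tissue lies against skeletal muscle and is densely supplied with vessels, so a dissected depot can hold fibres, smooth muscle and endothelium beside its adipocytes.

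The positions given are from the GRCm38 annotation (GENCODE M21). Myh2 (chromosome 11, 67171027 to 67197517), Myh1 (67200052 to 67224575) and Myh4 (67238029 to 67260446) follow each other on the plus strand. Myh10 lies on the same chromosome and strand, at 68691559 to 68816632. Myh7 lies on chromosome 14 (54970684 to 54994626), Myh9 on chromosome 15 (77760587 to 77842175), Myh11 on chromosome 16 (14194535 to 14291372) and Myh14 on chromosome 7 (44605803 to 44670843), all on the minus strand. The 3 neighbouring fast genes shared sequence upstream of their starts, which is shown as a description. A relation of this sequence to the pairs of these genes in single nuclei, given below, was not tested. RefSeq (GRCm38.p6) promoters, from 250 bases before to 50 bases after a gene's start, matched 7 of the 8 members, and Myh7 matched 2. The lines hold the bases from 250 to 51 upstream of the RefSeq start, 5′ to 3′ on the strand of the gene, with the longest run common to Myh1, Myh2 and Myh4 in capitals. They cover chr11:67199852-67200051, chr11:67170777-67170976, chr11:67237562-67237761 and, on the minus strand, chr14:54994677-54994876.
Myh1: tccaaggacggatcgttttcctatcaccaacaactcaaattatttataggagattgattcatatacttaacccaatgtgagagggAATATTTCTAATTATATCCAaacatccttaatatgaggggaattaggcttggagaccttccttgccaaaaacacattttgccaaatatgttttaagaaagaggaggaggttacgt
Myh2: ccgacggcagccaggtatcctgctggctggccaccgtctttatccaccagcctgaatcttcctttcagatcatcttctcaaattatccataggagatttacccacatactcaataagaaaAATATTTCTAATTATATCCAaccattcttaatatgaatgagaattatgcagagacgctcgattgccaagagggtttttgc
Myh4: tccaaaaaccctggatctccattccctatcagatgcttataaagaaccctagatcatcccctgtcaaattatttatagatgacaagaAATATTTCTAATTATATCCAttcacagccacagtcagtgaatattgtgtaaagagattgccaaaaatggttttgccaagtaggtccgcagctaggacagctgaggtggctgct
Myh7: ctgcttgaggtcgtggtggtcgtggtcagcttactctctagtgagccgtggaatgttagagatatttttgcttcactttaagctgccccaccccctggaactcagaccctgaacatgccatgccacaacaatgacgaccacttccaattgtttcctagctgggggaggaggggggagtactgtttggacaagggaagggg
The run of 20 bases begins at position -165 in Myh1, -130 in Myh2 and -163 in Myh4, and 3 of 32851 RefSeq promoters (0.00913%) hold it on either strand. The Myh7 window shown does not hold it. An MEF2 box, the consensus bound by myocyte enhancer factors, was matched at -211 in Myh1 and -182 in Myh4 and in 3.19% of all promoters. Both matches overlap a TATAAA, which 13.6% of promoters hold on either strand. A CArG box, the consensus of serum response factor, was matched only in Myh4 among these members (at -104) and in 1.63% of promoters. The E-box CANNTG, the short consensus of myogenic factors, had 3 matches in Myh4, none in Myh1 or Myh2 and at least 1 in 72.3% of promoters. A match is a description of letters and not a measured binding site.

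Nuclei were assigned to cell types by markers that include none of the members. A nucleus with at least 500 UMIs (unique molecular identifiers, each standing for a captured RNA molecule) took the type whose markers led all others, and levels are UMIs of a gene per 1000000 UMIs (CPM) summed over the nuclei of a type. Intervals are 95% Poisson intervals for CPM, conditional binomial intervals for ratios and Clopper-Pearson intervals for shares, and cover counting error only. In the WT and Ucp1-STX4KO matrix (116053743 UMIs), 17157 of 20307 nuclei (84.5%) were assigned. Of these, 14982 were adipocyte, 330 skeletal muscle, 13 smooth muscle, 322 pericyte and 184 endothelial nuclei. In the aging matrix (54656055 UMIs), 18960 of 30000 (63.2%) were assigned, with 12900 endothelial, 1985 pericyte, 1676 adipocyte, 861 smooth muscle and 532 Schwann nuclei and no skeletal muscle nucleus. The adipocyte gate was met by 73.8% of all barcodes of the first matrix and by 5.59% of the second. In the second, 4289 barcodes were left out as holding several types, 3358 as no type and 3393 for under 500 UMIs. Whether these hold adipocytes was not tested. A figure legend of the paper counts most of the 30000 aging nuclei before non-parenchymal stromal cells are added. The gate used here thus differs from the paper's labels, and the 2 were not compared by nucleus. The suffixes stood apart. Suffix 2 of the first matrix held 322 of the 330 skeletal muscle nuclei and 52.7% adipocytes, against 8 muscle nuclei and 90.9% adipocytes in suffix 1. In the aging matrix all 3393 barcodes under 500 UMIs had suffix 1. Their median was 159 UMIs, and they need not each hold a nucleus. Libraries shared 23 to 45 barcode sequences.

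**Figure D1:**
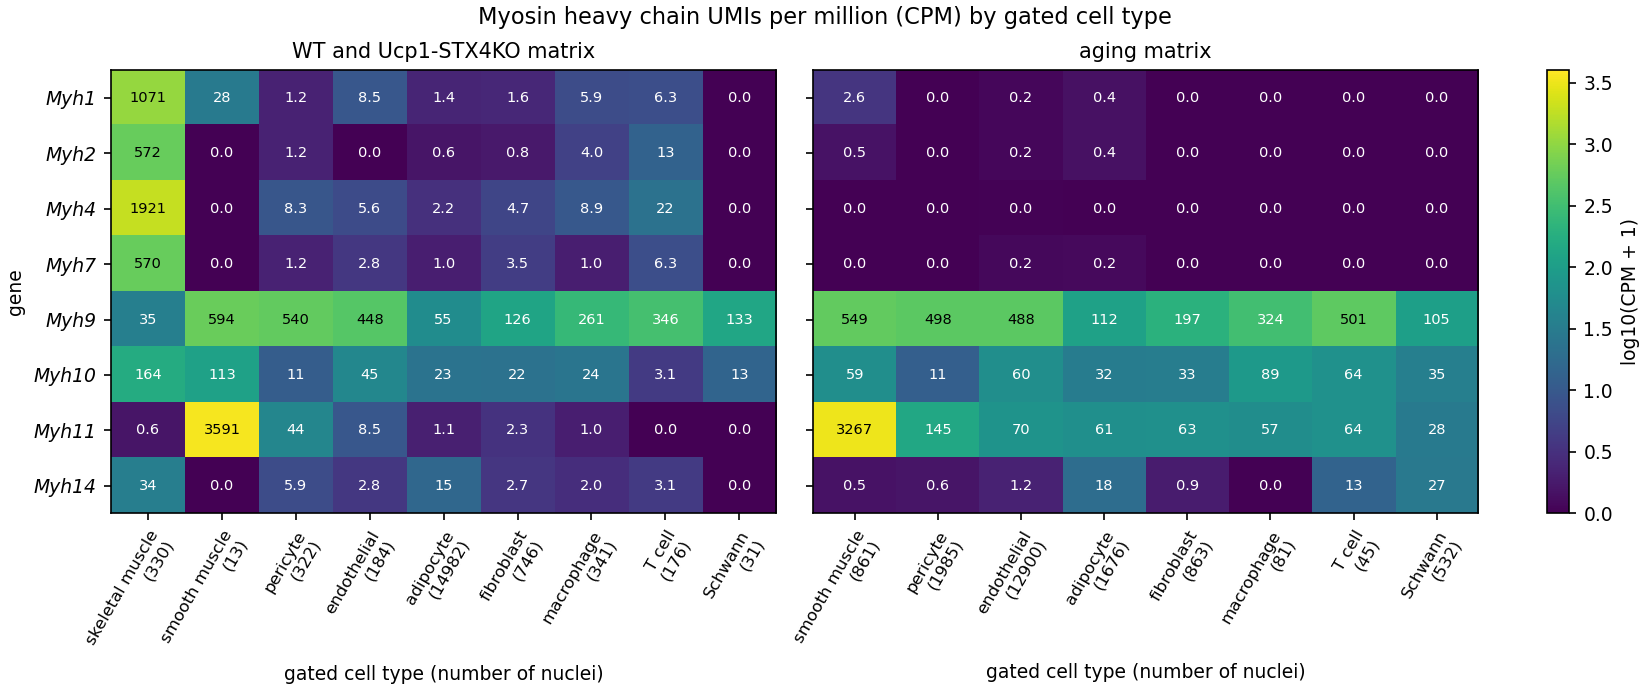
Heat map of the level of each myosin heavy chain gene (rows) in each gated cell type (columns, with the number of nuclei), as log10(CPM + 1) in color and CPM in print, for the WT and Ucp1-STX4KO matrix (left) and the aging matrix (right). Myh1, Myh2, Myh4 and Myh7 are high in skeletal muscle, Myh11 in smooth muscle, and Myh9 across pericyte, endothelial and smooth muscle nuclei.

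The 4 sarcomeric chains were found in the skeletal muscle nuclei of the WT and Ucp1-STX4KO matrix. Myh4 had 1921 CPM there (1855 to 1989, 3179 UMIs), Myh1 had 1071 CPM (1022 to 1122, 1772 UMIs), Myh2 had 572 CPM (536 to 609, 946 UMIs) and Myh7 had 569.9 CPM (534 to 607, 943 UMIs). Per kilobase of exon this was 319 CPM for Myh4, 169 for Myh1, 80.1 for Myh2 and 66.1 for Myh7. Per kilobase of gene, which may apply where intronic reads are counted, the order of the last 2 turned, with 21.6 CPM for Myh2 and 23.8 for Myh7. A 3′ assay reads near the end of each molecule, so its counts need not scale with length. The scaled values are therefore descriptions, and unscaled CPM is used elsewhere. These nuclei also held Ttn, the giant spring protein of the sarcomere, at 67731 CPM and Neb, the ruler of the thin filament, at 11992 CPM, and all 8 gating markers lay between 181 and 67731 CPM. Between 84.0% and 89.2% of all UMIs of each of the 4 genes in the matrix lay in these 330 nuclei.

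By library, the 322 nuclei with suffix 2 held Myh1 at 1036 CPM, Myh2 at 585 CPM, Myh4 at 1939 CPM and Myh7 at 571 CPM. The 8 nuclei with suffix 1 held Myh1 at 2557 CPM (98 UMIs), Myh4 at 1174 CPM (45 UMIs), Myh7 at 522 CPM (20 UMIs) and no UMI of Myh2, which allows up to 78.3 CPM. The summed level of the 4 genes was 4253 CPM (3625 to 4958) with suffix 1 and 4131 CPM (4032 to 4231) with suffix 2, with overlapping intervals. With 8 nuclei, the mix of genes in suffix 1 rests on few fibres.

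Against the other gated nuclei of the matrix, 6 of the 8 members were at least 2-fold higher in skeletal muscle nuclei, where 11.4% of the 17850 genes with at least 20 UMIs were, and 1 member was at least 2-fold lower, as were 45.1% of genes. The 6 were the 4 sarcomeric chains, at ratios from 526 (Myh7) to 847 (Myh2), Myh10 at 7.21 (6.34 to 8.18) and Myh14 at 2.36 (1.77 to 3.08). Myh11 was the lower member, with 1 UMI in muscle. Myh9 lay at 0.535 (0.405 to 0.692), between both limits. All 8 members had enough UMIs for this comparison.

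Genes that work beside the chains in the sarcomere were high in the same nuclei. All 8 fast fibre genes, among them the troponins Tnnt3, Tnni2 and Tnnc2 and the calcium pump Atp2a1, were at least 2-fold higher than in other gated nuclei (median ratio 412). Of the 8 slow fibre genes 7 were (median ratio 188), with Atp2a2, a calcium pump that other cells use too, at 1.89 (1.79 to 2.00). Of the 9 myosin light chains 5 were higher. They include Myl2, the regulatory chain of slow fibres, at 361 (253 to 526), and Mylpf, its fast counterpart, at 93.8 (62.4 to 142), while Myl4 and Myl6b were at least 2-fold lower. The myosin chaperone Unc45b had a ratio of 79.3 (64.8 to 97.1), the methyltransferase Smyd1, which binds it during myosin folding, 15.4 (13.6 to 17.3), and the phosphatase subunit Ppp1r12b 6.38 (6.13 to 6.63). The smooth muscle light chain kinase Mylk was lower, at 0.314 (0.150 to 0.579). The other 5 actomyosin regulators and chaperones changed by less than 2-fold.

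In single nuclei the 4 chains parted from each other. Of the 322 muscle nuclei with suffix 2, 218 held UMIs of 1 of the 4 genes, 98 of 2, 4 of 3 and 2 of none. Myh4 was alone in 122 nuclei (37.9%, 32.6 to 43.4), Myh1 in 48, Myh7 in 43 and Myh2 in 5. The pairs were mostly neighbours in the order Myh2, Myh1, Myh4, as 48 nuclei held just Myh1 and Myh2 and 41 just Myh1 and Myh4. With at least 3 UMIs of each gene asked for, 26 nuclei held Myh1 with Myh2 and 22 held Myh1 with Myh4. No nucleus held any of the other 4 pairs at that level, although 52 nuclei reached it for Myh2, 157 for Myh4 and 46 for Myh7. A count of 0 of 322 nuclei is a limit on nuclei with these UMIs, not on fibres that use both genes. Each of the 8 nuclei with suffix 1 held 1 of the genes (4 Myh1, 3 Myh4 and 1 Myh7).

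**Figure D2:**
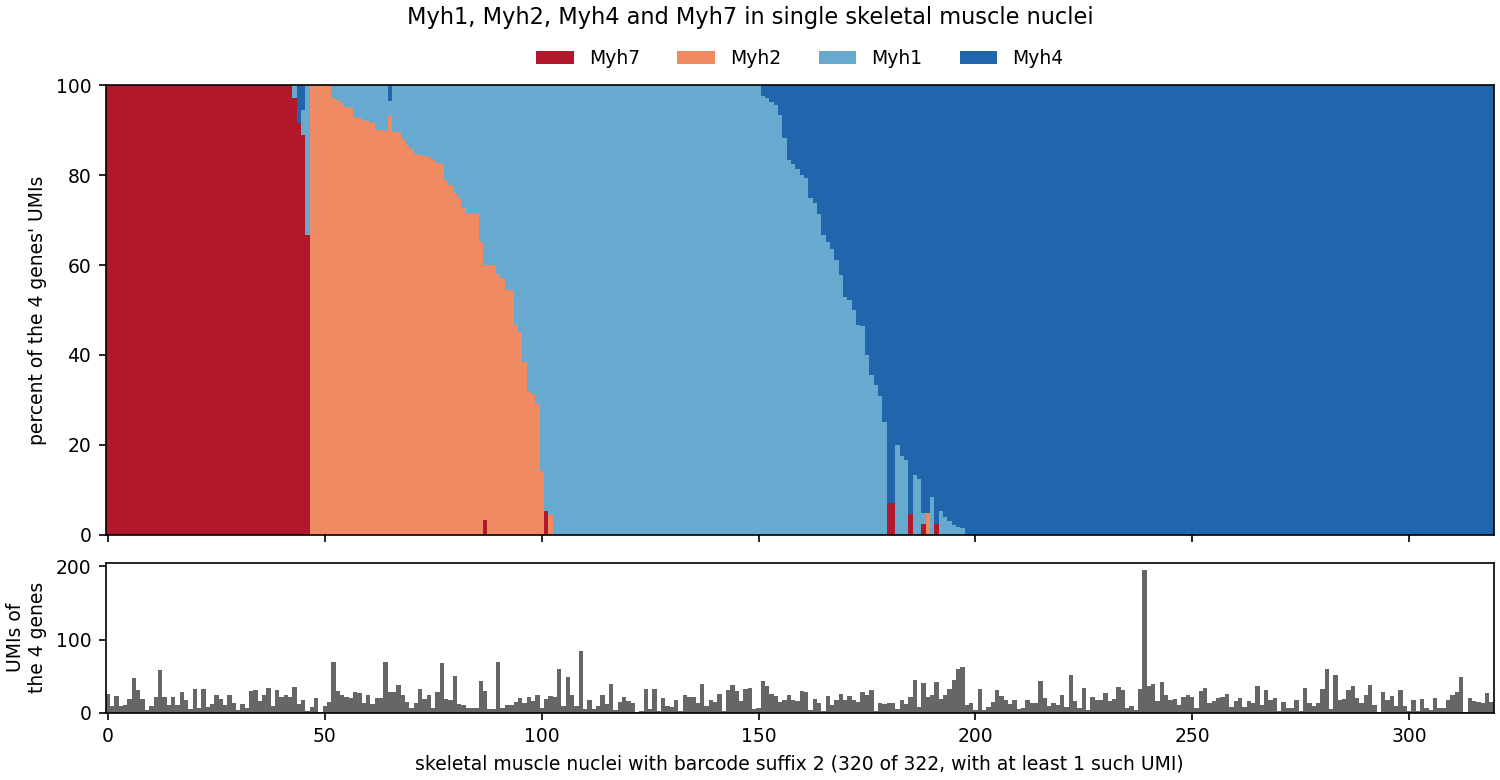
Each bar is a skeletal muscle nucleus with suffix 2 of the WT and Ucp1-STX4KO matrix that holds at least 1 UMI of the 4 genes, sorted by makeup. The upper panel gives the percent of the 4 genes' UMIs that are Myh7, Myh2, Myh1 or Myh4, and the lower panel their number. Mixed bars join Myh2 to Myh1 and Myh1 to Myh4, and the 43 nuclei with Myh7 alone stand apart.

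Myh1, Myh2 and Myh4 are near copies, which bears on the mixed nuclei. Of the windows of 50 bases in the Myh1 transcript, 23.0% also occur in another member, against 22.3% for Myh2, 13.3% for Myh4 and 0.210% for Myh7. In the last 500 windows, where a 3′ assay reads, the shares were 18.8%, 18.2%, 8.2% and 0%. Reads from such windows cannot be assigned by sequence, and how the authors' counting treated them is not stated in the sources used here. Doublets and free RNA can also place UMIs of 2 genes in 1 barcode, and their part in the mixed nuclei was not tested. Of the other myosin heavy chains of skeletal and cardiac muscle, Myh7b is described below with the light chains. Within the 4 groups described next, the embryonic Myh3 had 2 UMIs, the atrial Myh6 9 UMIs, all in nuclei with mostly Myh7, and the perinatal Myh8 and the extraocular Myh13 none.

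Nuclei were then grouped by the gene with at least 75% of at least 3 UMIs of the 4 genes. With suffix 2, Myh4 led in 138 nuclei (42.9%, 37.4 to 48.5), Myh1 in 59 (18.3%, 14.3 to 23.0), Myh7 in 46 (14.3%, 10.7 to 18.6) and Myh2 in 34 (10.6%, 7.42 to 14.4). In 35 no gene led and 10 had under 3 such UMIs. The groups are ranges of a share, not types, and 36 muscle nuclei had a leading share between 65% and 85%. The levels of the 4 genes in these groups follow from the grouping and are not a result. Median UMIs per nucleus were alike, from 3823 in Myh2-led to 5286 in Myh7-led nuclei.

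Genes that the grouping did not use differed between the groups. In Myh7-led against Myh4-led nuclei, all 7 slow fibre genes with at least 20 UMIs were at least 2-fold higher, where 10.1% of 5689 genes were, and all 8 fast fibre genes were at least 2-fold lower, where 14.3% were. The slow troponin Tnnt1 had 1260 CPM in Myh7-led nuclei (333 UMIs in 46 of 46 nuclei), 1 UMI in Myh4-led nuclei and none in Myh1-led or Myh2-led nuclei. Tnnc1, the slow and cardiac troponin C, had 813 CPM (215 UMIs) and no UMI in the other 3 groups. The calcium pump Atp2a2 had 4097 CPM in Myh7-led nuclei against 69.7, 80.9 and 86.3 CPM in Myh4-led, Myh1-led and Myh2-led nuclei. In the other direction, the fast troponin Tnnt3 had 2604 CPM in Myh4-led, 1719 in Myh1-led and 1307 in Myh2-led nuclei against 22.7 CPM (6 UMIs) in Myh7-led nuclei. Ttn, which every fibre needs, lay between 64385 and 73458 CPM in the 4 groups. Neb was less even, with 19253 CPM in Myh2-led, 11939 in Myh7-led, 11867 in Myh1-led and 10314 CPM in Myh4-led nuclei. Both genes are gating markers.

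The fast groups differed among themselves too. Actn3, the alpha-actinin of fast glycolytic fibres, had 181 CPM (151 to 215) in Myh4-led and 47.2 CPM (25.8 to 79.2) in Myh1-led nuclei and no UMI in Myh2-led or Myh7-led nuclei. Mybpc2, the fast myosin-binding protein C, went the same way, with 519.9, 202, 0 and 0 CPM. Pvalb, the calcium buffer parvalbumin, had 276 CPM in Myh4-led, 50.6 in Myh1-led and 18.5 CPM (3 UMIs) in Myh2-led nuclei. Against Myh4-led nuclei, 5 of 8 fast fibre genes were at least 2-fold lower in Myh2-led nuclei (16.6% of 5231 genes were, and 6.65% were at least 2-fold higher) and 4 of 8 in Myh1-led nuclei (6.89% of 5617 genes were, and 3.42% were higher). Not every gene of the slow list followed Myh7. Myoz2, a calcineurin-binding protein of the Z-disc, had 1404 CPM in Myh7-led and 536 CPM in Myh2-led nuclei but 3 UMIs in Myh4-led nuclei. Mybpc1, the slow myosin-binding protein C, had its highest level in Myh2-led nuclei, with 9870 CPM (9392 to 10365) against 7937 (7601 to 8284) in Myh7-led, 4062 in Myh1-led and 2547 CPM in Myh4-led nuclei.

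Light chains parted by group as well. Myl2 had 745 CPM (197 UMIs) in Myh7-led nuclei and at most 1 UMI in each of the other groups. Myl1, the fast essential chain, had 1413 CPM in Myh4-led, 1086 in Myh1-led and 1449 in Myh2-led nuclei against 90.8 CPM (58.2 to 135) in Myh7-led nuclei. Myh7b, a slow-type chain that carries a microRNA in an intron, had 783 CPM (680.0 to 897) in Myh7-led nuclei, where 40 of 46 nuclei held it, and 1 UMI in each of the other groups. Its ratio to Myh4-led nuclei was 562 (99.7 to 22295).

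Myh10, the non-muscle IIB chain, also differed between these groups. It had 583 CPM (494 to 682) in Myh7-led nuclei and 339 CPM (255 to 441) in Myh2-led nuclei, against 47.2 CPM (25.8 to 79.2) in Myh1-led and 32.1 CPM (20.3 to 48.1) in Myh4-led nuclei. At least 1 UMI of Myh10 was in 41 of 46 Myh7-led, 22 of 34 Myh2-led, 11 of 59 Myh1-led and 17 of 138 Myh4-led nuclei. Its ratio was 18.2 (11.7 to 29.5) in Myh7-led and 10.6 (6.39 to 18.0) in Myh2-led against Myh4-led nuclei. Against Myh1-led nuclei, Myh2-led nuclei had 7.18 times (3.94 to 13.99) the level, where 5.72% of genes were at least 2-fold higher and 10.2% lower. The ratio of Myh7-led to Myh2-led nuclei was 1.72 (1.26 to 2.38), and that of Myh1-led to Myh4-led nuclei was 1.47 (0.700 to 2.99), an interval that holds 1. The other non-muscle chains lacked this order. Myh9 had 40.4, 37.1, 24.7 and 18.9 CPM in Myh4-led, Myh1-led, Myh2-led and Myh7-led nuclei, on 29, 11, 4 and 5 UMIs, and Myh14 had 36.2, 37.1, 30.8 and 34.0 CPM. All their intervals overlapped, although the ratio of Myh9 in Myh7-led to Myh4-led nuclei, 0.468 (0.141 to 1.22), passed the 2-fold limit. Among actomyosin regulators, the kinase Rock2 had 1199 CPM in Myh7-led against 562 CPM in Myh4-led nuclei, a ratio of 2.13 (1.84 to 2.48), and Ppp1r12b had a ratio of 2.11 (1.90 to 2.34). These values come from 1 library, and animals could not be told apart in it.

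**Figure D3:**
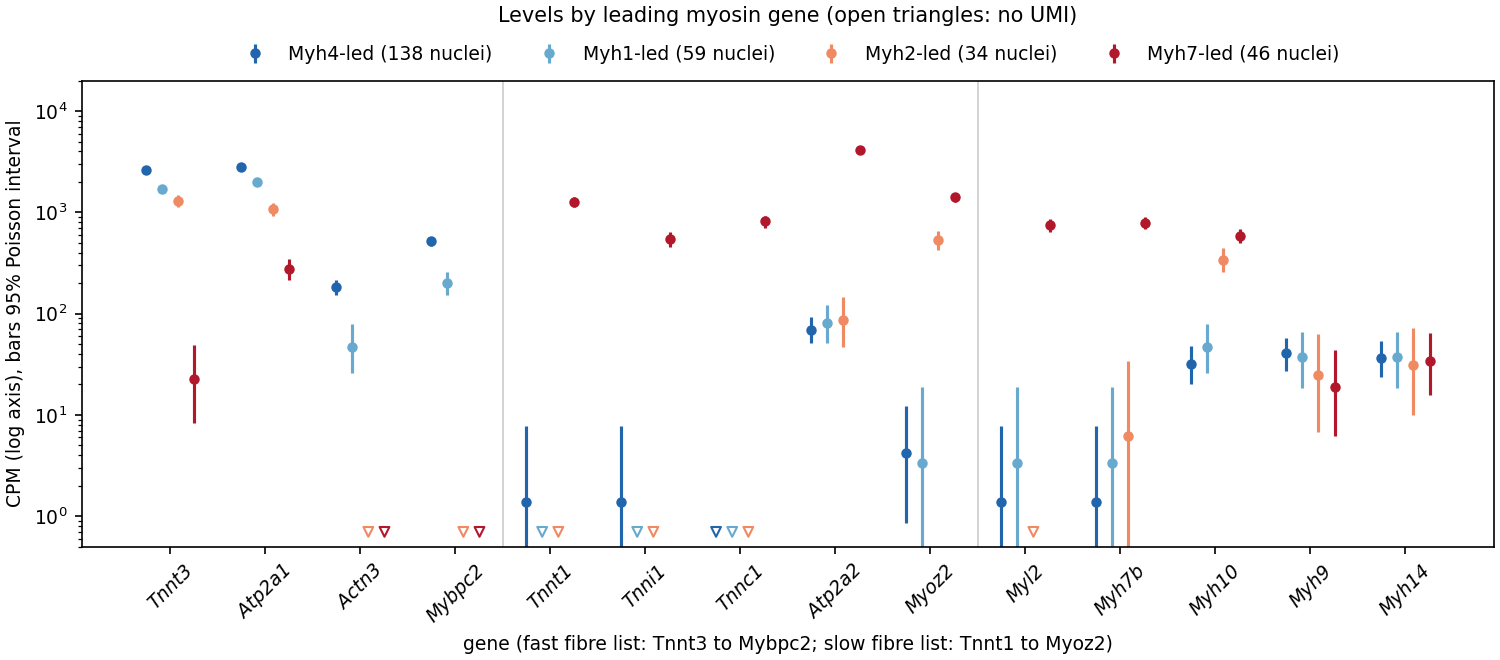
Level (CPM, log axis) of fast fibre genes (left), slow fibre genes (middle) and Myl2 and other myosin heavy chain genes (right) in muscle nuclei with suffix 2, by the leading gene. Bars are 95% Poisson intervals and open triangles mark 0 UMIs. Tnnt3 falls from 2604 CPM in Myh4-led to 22.7 CPM in Myh7-led nuclei, and Myh10 is at 339 and 583 CPM in Myh2-led and Myh7-led nuclei.

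Antisense transcripts that overlap the members were looked at after their values had been seen. Myhas (chromosome 11, overlapping Myh1 from 67211256 to 67224575 on the minus strand) had 179 CPM (297 UMIs) in skeletal muscle nuclei and 0.247 CPM in other gated nuclei. It had 346 CPM (304 to 392) in Myh4-led nuclei, 84.3 CPM (54.5 to 124) in Myh1-led nuclei, 1 UMI in Myh2-led nuclei and none in Myh7-led nuclei, so its level was higher in the nuclei led by Myh4 than in those led by Myh1, the gene it overlaps. Mhrt, antisense to Myh7, had 208 CPM (157 to 271) in Myh7-led nuclei and no UMI in the other 3 groups. Whether the counting used strand is not stated in the sources used here, and without strand the reads of a gene and of its antisense partner cannot be told apart.

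Outside muscle the sarcomeric chains were far below their level in muscle nuclei, and their level followed the library. In adipocyte nuclei the 4 genes had 17.1 CPM (15.6 to 18.7, 483 UMIs) with suffix 2 and 0.447 CPM (0.306 to 0.631, 32 UMIs) with suffix 1. In the other suffix 2 types of at least 100 nuclei they had from 18.7 CPM in fibroblasts to 56.2 CPM in T cells, the latter on 15 UMIs, and the 25 B cell and 23 Schwann nuclei held no UMI of them. Ttn moved with them, at 115 CPM in suffix 2 and 2.95 CPM in suffix 1 adipocytes. The adipocyte UMIs with suffix 2 were 23.8% Myh1, 12.4% Myh2, 43.5% Myh4 and 20.3% Myh7, beside 25.1%, 14.2%, 46.9% and 13.8% in the muscle nuclei of that library. Of the 483 UMIs, 128 lay in 4 nuclei. For each 100 UMIs of Ttn, adipocytes held 14.9 of the 4 genes and muscle nuclei 6.05. Free RNA and doublets were not tested as the source, and 6.92% of these adipocytes (median 4927 UMIs) held a UMI of the 4 genes, beside 6.80% of macrophages (2493 UMIs) and 6.05% of fibroblasts (2834.5 UMIs), types that lack sarcomeres. Over all barcodes of the aging matrix Myh1 had 19 UMIs, Myh2 11, Myh7 9 and Myh4 3, fewer than the 20 asked for.

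Myh11 marked the smooth muscle nuclei. It had 3267 CPM (3187 to 3349, 6283 UMIs) in the 861 smooth muscle nuclei of the aging matrix, with 3141 CPM in suffix 1, 2941 in suffix 2 and 3863 CPM in suffix 3. Suffix 3 was highest, and its interval (3679 to 4053) did not overlap those of the other two. Pericytes, the other mural cells of vessels, had 145 CPM (135 to 156), with 167, 123 and 125 CPM by suffix. Endothelial nuclei had 70.1 CPM, fibroblasts 62.6, adipocytes 61.3 and macrophages 57.1 CPM, neighbours in this order whose ratio intervals all held 1, and Schwann nuclei had 28.1 CPM on 36 UMIs. The ratio of smooth muscle to pericyte was 22.5 (20.9 to 24.4), and lay between 18.8 and 31.0 by suffix. After thinning each nucleus to 500 UMIs, 73.6% of smooth muscle, 7.41% of pericyte, 3.6% of endothelial and 2.51% of adipocyte nuclei held a UMI. Unthinned, the share in smooth muscle was 95.4%.

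Of the 4 members with at least 20 UMIs in the aging matrix, Myh11 was at least 2-fold higher in smooth muscle than in other gated nuclei, at 42.3 (40.4 to 44.2), where 8.89% of 17302 genes were. Myh14 was at least 2-fold lower (1 UMI), where 32.7% were. Of the 9 regulators and chaperones, the chaperone Unc45b was at least 2-fold lower and 6 were at least 2-fold higher. They include the kinase Mylk at 9.89 (9.42 to 10.4), which switches smooth muscle myosin on, and the phosphatase subunits Ppp1r12b at 10.0 (9.61 to 10.4), Ppp1r12a at 6.82 (6.63 to 7.01) and Ppp1cb, which switch it off. Among light chains, Myl9, the smooth muscle regulatory chain, had a ratio of 10.8 (9.75 to 12.0), and Myl12a and Myl12b, its non-muscle counterparts, were at least 2-fold lower. Of the 8 light chains with at least 20 UMIs, Myl1 and Myl6 were also at least 2-fold higher and Mylpf at least 2-fold lower.

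Pericytes held more Myh11 than endothelial nuclei, at a ratio of 2.07 (1.89 to 2.26), and at 2.35, 2.63 and 1.45 by suffix, each with an interval above 1. The smooth muscle genes Acta2 and Tagln, both gating markers, had pericyte to endothelial ratios of 0.911 (0.760 to 1.09) and 0.512 (0.376 to 0.685). The gate lowers both by construction, and was not set on Myh11. In the WT and Ucp1-STX4KO matrix the 13 smooth muscle nuclei had 3591 CPM (127 UMIs). Pericytes there had 43.9 CPM (30.9 to 60.5), at 57.4 CPM with suffix 1 and 26.8 CPM with suffix 2, and adipocytes 1.07 CPM, a pooled ratio of 41.0 (27.4 to 60.1) that was 72.1 (43.9 to 116) with suffix 1 and 15.2 (6.86 to 30.3) with suffix 2. Adipocytes of the aging matrix thus had a level of Myh11 far above that of adipocytes in the first matrix, beside a larger number of smooth muscle nuclei in their libraries. The part of free RNA in it was not tested.

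Myh9, the non-muscle IIA chain, was highest in vessel wall nuclei in both matrices, among types of at least 50 nuclei. In the WT and Ucp1-STX4KO matrix it had 540.0 CPM (491 to 592) in pericytes, then 448 in endothelial nuclei, 346 in T cells, 261 in macrophages, 126 in fibroblasts, 55.4 in adipocytes and 35.0 CPM (26.6 to 45.3) in skeletal muscle. The ratio of each type to the next had an interval above 1, narrowly so for pericyte over endothelial nuclei (1.21, 1.004 to 1.45). These values pool both libraries, and the order of the top types was not seen in suffix 1, where pericytes had 376 CPM (323 to 436), endothelial nuclei 361 CPM (259 to 489, 41 UMIs) and T cells 353 CPM (209 to 557, 18 UMIs). The order in the aging matrix was smooth muscle at 549 CPM (517 to 583), pericytes at 498, endothelial nuclei at 488, macrophages at 324, fibroblasts at 197, adipocytes at 112 and Schwann nuclei at 105 CPM. Pooled over libraries, pericyte and endothelial levels had a ratio of 1.02 (0.978 to 1.07) and Schwann and adipocyte levels one of 0.939 (0.771 to 1.14). In suffix 2, however, pericytes had 547 CPM (504 to 593) against 465 CPM (451 to 479) in endothelial nuclei, and the Schwann to adipocyte ratio was 1.61 (1.03 to 2.44). Endothelial nuclei had 8.08 times (6.86 to 9.47) the Myh9 level of adipocytes in the first matrix and 4.34 times (3.97 to 4.76) in the second. In nuclei with no marker UMI of another muscle, mural or endothelial list the values were 8.10 and 9.03 (6.72 to 12.4), so the gap between the matrices depended on this choice. With 500 UMIs per nucleus, 20.6% of endothelial and 6.21% of adipocyte nuclei of the aging matrix held a UMI, against 21.7% and 2.85% in the first matrix.

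Libraries differed for Myh9 in some types. In adipocytes of the aging matrix it had 79.5 CPM (67.9 to 92.5) with suffix 1, 128 CPM (111 to 147) with suffix 2 and 167 CPM (140 to 198) with suffix 3, and the first 2 intervals did not overlap. Its endothelial levels in the same libraries were 465, 465 and 506 CPM. The share of endothelial nuclei rose in the same order, from 13.3% over 47.8% to 68.0% of barcodes, and its part in the adipocyte level was not tested. In adipocytes of the first matrix both suffixes had like levels, at 56.0 and 54.0 CPM (ratio 1.04, 0.978 to 1.10). Its pericytes had 376 CPM (323 to 436) with suffix 1 and 746 CPM (661 to 839) with suffix 2, a ratio of 1.98 (1.64 to 2.41).

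Myh10 had a pattern of its own. In the WT and Ucp1-STX4KO matrix it was highest in skeletal muscle, at 164 CPM (145 to 184), 3.63 times (2.20 to 6.45) the 45.1 CPM of endothelial nuclei. Endothelial nuclei, macrophages, adipocytes (22.8 CPM), fibroblasts (21.8 CPM) and pericytes (10.7 CPM, 9 UMIs) followed, with neighbours that did not differ beyond counting error, and T cells held 1 UMI. Endothelial nuclei of the aging matrix had 59.9 CPM (56.9 to 63.1) and smooth muscle 59.3 CPM (48.9 to 71.2), alike within counting error, and macrophages 88.9 CPM on 14 UMIs. Schwann nuclei, fibroblasts and adipocytes lay between 31.6 and 35.1 CPM. Pericytes were lowest at 11.1 CPM (8.39 to 14.4).

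The 2 mural cell types thus differed in Myh10 and hardly in Myh9. The smooth muscle to pericyte ratio of Myh10 in the aging matrix was 5.34 (3.85 to 7.49), and it was 7.61 (4.39 to 13.9), 3.56 (1.79 to 7.13) and 5.52 (3.10 to 10.0) by suffix. That of Myh9 was 1.10 (1.03 to 1.19). Against other gated nuclei of the aging matrix, pericytes had 2 of 4 members at least 2-fold lower, Myh10 and Myh14, where 27.3% of 17302 genes were, and none at least 2-fold higher, where 10.6% were. In the first matrix pericytes had Myh9 and Myh11 at least 2-fold higher (18.4% of genes were) and the other 6 members at least 2-fold lower (32.7% were). Endothelial nuclei there had the same pair at least 2-fold higher (20.4% of genes were), with Myh11 on 3 UMIs, and 5 members at least 2-fold lower (39.1% were).

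**Figure D4:**
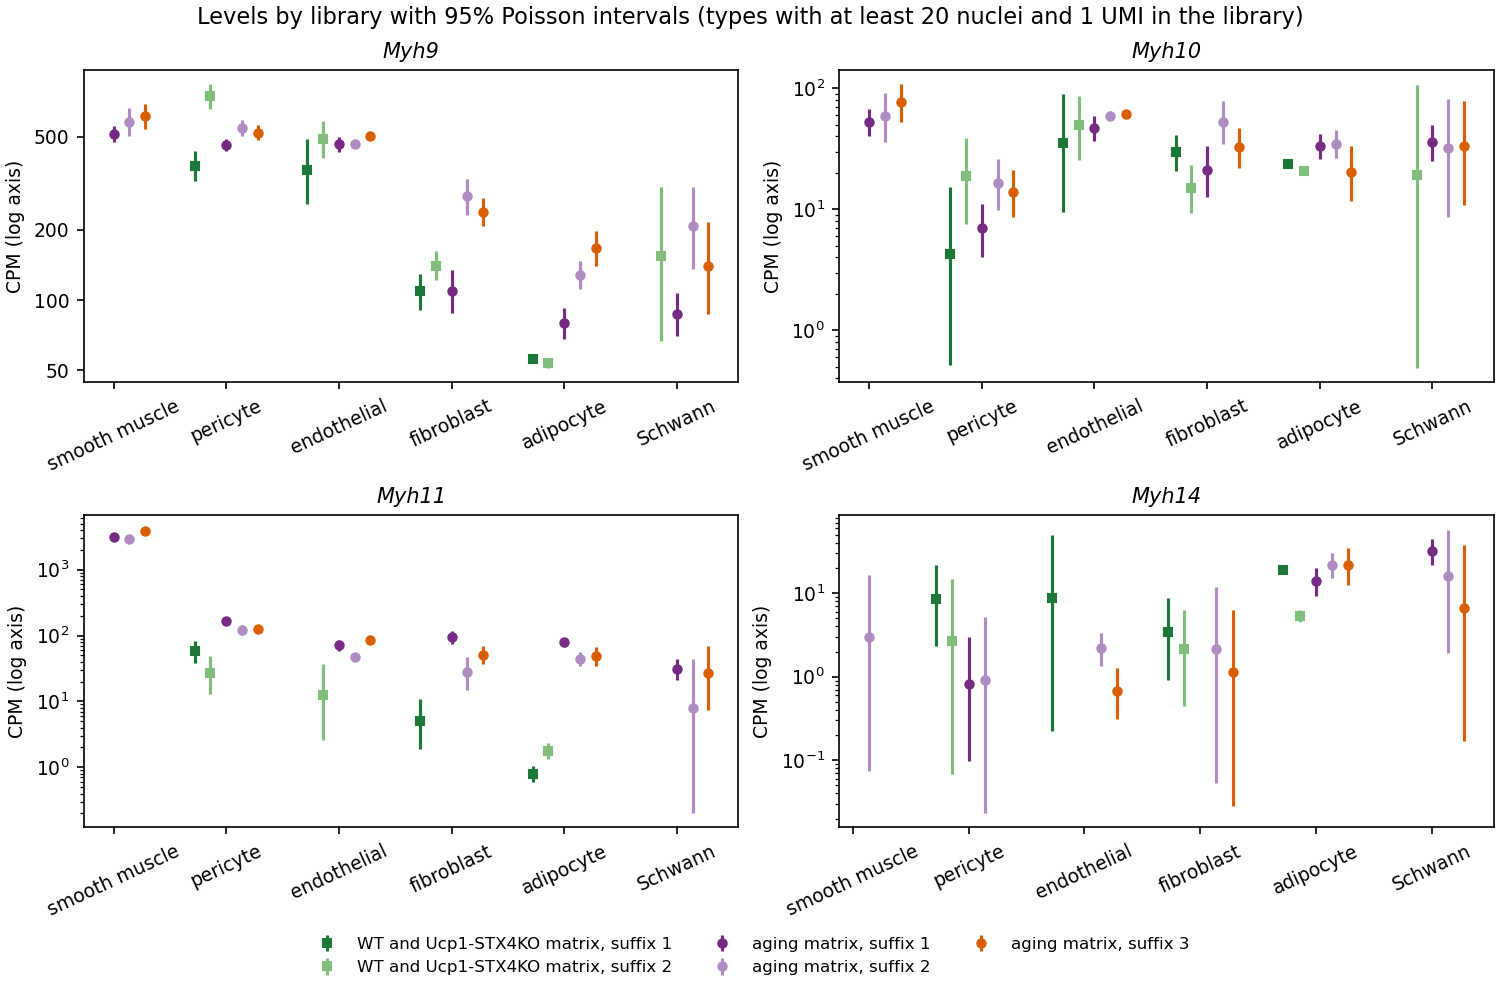
Level (CPM, log axis) of Myh9, Myh10, Myh11 and Myh14 by cell type, with a point for each library (squares for the WT and Ucp1-STX4KO matrix, circles for the aging matrix) and 95% Poisson intervals, for types with at least 20 nuclei and 1 UMI in the library. Myh10 is lower in pericytes than in smooth muscle in each aging library, and Myh14 in adipocytes is at 18.8 CPM and 5.34 CPM in the 2 libraries of the first matrix.

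Myh14, the non-muscle IIC chain, was the member whose level in adipocytes, pooled over the libraries of a matrix, stood above that of most other types. Adipocytes of the aging matrix had 18.0 CPM (14.3 to 22.4, 81 UMIs) and Schwann nuclei 27.3 CPM (19.0 to 38.0, 35 UMIs), with a pooled adipocyte to Schwann ratio of 0.660 (0.439 to 1.01), and endothelial nuclei had 1.21 CPM (29 UMIs). Smooth muscle, pericyte and fibroblast nuclei held 1, 3 and 2 UMIs. The adipocyte to endothelial ratio was 14.9 (9.67 to 23.7). By suffix the adipocyte levels were 13.8, 21.8 and 21.7 CPM, with overlapping intervals. Against other gated nuclei Myh14 was at least 2-fold higher in adipocytes, at 8.83 (6.34 to 12.3), where 20.8% of 17302 genes were, and in Schwann nuclei, at 8.86 (5.89 to 13.03), where 13.1% were. Myh9 and Myh11 were at least 2-fold lower in both types, as were 26.1% of genes in adipocytes and 32.9% in Schwann nuclei. Of the 35 Schwann UMIs of Myh14, 32 came from suffix 1, where the adipocyte to Schwann ratio was 0.434 (0.253 to 0.741), so the types differed beyond counting error in that library.

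In the WT and Ucp1-STX4KO matrix skeletal muscle had the highest Myh14 level, at 33.8 CPM (25.6 to 43.9, 56 UMIs), and adipocytes had 15.0 CPM (14.2 to 15.7, 1494 UMIs). Adipocytes of the 2 libraries differed, with 18.8 CPM (17.8 to 19.8) in suffix 1 and 5.34 CPM (4.53 to 6.27) in suffix 2, a ratio of 3.51 (2.96 to 4.18). Of 16991 genes, 24.2% were at least 2-fold higher in suffix 1 adipocytes, so a ratio above 2 was common in this comparison. Over the same nuclei the ratio was 1.56 (1.50 to 1.62) for Adipoq, the adipocyte hormone adiponectin, 1.22 (1.20 to 1.23) for Ucp1, 1.04 for Myh9 and 1.13 (1.03 to 1.25) for Myh10. Within suffix 2, muscle nuclei had 6.48 times (4.68 to 8.87) the Myh14 level of adipocytes, and in suffix 1 the 8 muscle nuclei had no UMI of it. Adipocytes had 5.54 times (2.16 to 20.4) the Myh14 level of fibroblasts in suffix 1. In suffix 2 the ratio was 2.48 (0.833 to 12.2), an interval that holds 1, on 3 fibroblast UMIs. Against other gated nuclei of this matrix, adipocytes had 7 members at least 2-fold lower, where 27.8% of 17850 genes were, and Myh14 at 1.45 (1.14 to 1.86). Those other nuclei include the 330 skeletal muscle nuclei, which held most UMIs of Myh1, Myh2, Myh4 and Myh7. Levels of 2 overlapping genes cannot be parted without strand here either, and 2310016G11Rik, antisense at the start of Myh14, had 42 UMIs in the matrix.

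Compared per kilobase of exon, the non-muscle chains of adipocytes had 4.29 CPM for Myh9, 2.18 for Myh10 and 2.06 for Myh14 in the first matrix and 8.68, 3.02 and 2.48 CPM in the aging matrix. Per kilobase of gene they had 0.679, 0.182 and 0.230 CPM and 1.38, 0.253 and 0.277 CPM, so Myh9 led on both scales and the order of Myh10 and Myh14 depended on the scale. Unscaled, they had 55.4, 22.8 and 15.0 CPM and 112, 31.6 and 18.0 CPM. Counts of a 3′ assay need not scale with length, so the scaled order is a description. In endothelial nuclei of the aging matrix Myh9 had 37.7 CPM and Myh10 5.73 CPM per kilobase of exon.

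The genes most like each member were sought by the correlation of log2(CPM + 1) over the 7 cell types with at least 50 nuclei of a matrix. The points share libraries, and for the muscle chains a single type sets the value, so the correlations are descriptions. For Myh4 the leading genes were Alpk2, Mybpc1 and Mylk4 (r = 0.992, 0.991 and 0.990), for Myh2 Ppp1r3a, Ky and Actn3, for Myh1 5430431A17Rik, Agbl1 and Nkain2, and for Myh7 Alpk2, Gm13490 and Mybpc1. Myh11 was led in the aging matrix by Mtmr7 (r = 0.996), Gm35110 and Gm10848, Myh9 by Rasal2 (r = 0.982), Bvht and Cemip2, Myh14 by Fmc1 (r = 0.980), Ppdpf and Igsf21, and Myh10 by Gm42941 (r = 0.946), Abca3 and Nasp. In the first matrix, Myh11 was led by Kcnh1, Ppp1r14a and Gm28323, Myh9 by Itm2c, Relb and Gnpda2, Myh14 by Ggnbp1, Ell2 and 4732491K20Rik, and Myh10 by A930033H14Rik, Smyd2 and Dst. No gene was named for a non-muscle chain in both matrices.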

How the data were processed

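Sorted nuclei of mouse iBAT were profiled with the 10x Genomics 3′ v3.1 assay. The authors aligned reads to mm10 with Cell Ranger 6.1.2 and deposited raw UMI counts per gene and nucleus in 2 matrices. The paper states that Cell Ranger was forced to call 10000 cells and that barcodes were filtered by their UMIs and genes. Seurat 4.1.0 is also named in the submitters' processing notes. The annotation release, and whether introns and strand were used in counting, are not given in the sources used here. Each matrix was treated as 1 pooled sample, since no label maps a suffix to a sample.

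For each of 10 marker lists, a nucleus's share of UMIs was divided by the 99.5th percentile of that share among nuclei of at least 500 UMIs (the higher of both matrices). A nucleus took the leading list if it had at least 3 marker UMIs from 2 markers, a score of at least 0.2 and 2 times every other score. Otherwise it was left out as holding several types or none, which also served against doublets, since no doublet caller was run. These thresholds, and the grouping of muscle nuclei, were set after seeing the data, and the members and lists were chosen with earlier results of these data known. A gene was compared with at least 20 UMIs over both sides and called at 2-fold or more. For a count of 0, 3 counts gave the limit.

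Named were the 8 members, genes of the fixed lists of other myosin heavy chains, fast and slow fibre genes, light chains and regulators, and for each member the 3 genes most like it. Gating markers, Ucp1 and antisense genes are named beside them. Positions and lengths came from GENCODE M21 (GRCm38), matched by Ensembl identifier for 48 of 48 genes, and promoters from RefSeq. By suffix, libraries totalled 76195924 and 39857819 UMIs (WT and Ucp1-STX4KO) or 14486189, 19278264 and 20891602 UMIs (aging), and each aging library held 10000 barcodes. Alternatives were a stricter gate, other minimum depths, purer nuclei, no deep nuclei, single suffixes, thinning to 500 UMIs and the mean over nuclei. Scripts were tested on simulated data and run with pandas 2.3.3, scipy 1.17.1 and numpy 2.4.6 under Python 3.11.15, and figures were drawn with matplotlib 3.10.9.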

Additional observations from a re-analysis of the deposited data

How the results depend on the processing

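Of 93 alternative values for 10 results, 61 lay within the counting interval of the value reported and 32 lay outside it. Among the ratios 0 changed direction, while the CPM levels and the Myh7 share have no direction to change. A ratio was counted by its value alone, also where its interval held 1. No paired analysis was possible because no suffix is mapped to a sample and the labels give no shared replicate numbers. The summed CPM of the sarcomeric chains in muscle (4133) was 4478 in nuclei with no marker UMI of another muscle, mural or endothelial list, 4253 with suffix 1, 3952 thinned and 4253 as a mean over nuclei. Myh11 in smooth muscle (3267 CPM) was 3443 under the stricter gate, 3440 with no such marker UMI, 3132 without the deepest nuclei, 3171 thinned and 3143 as a mean over nuclei, and 3141, 2941 and 3863 by suffix. The endothelial to adipocyte ratio of Myh9 in the aging matrix (4.34) was 9.03 with no such marker UMI and 5.84, 3.62 and 3.03 by suffix. In the first matrix (8.08) it was 6.44 with suffix 1. The smooth muscle to pericyte ratio of Myh10 (5.34) was 18.7 with no such marker UMI, 7.61 with suffix 1, 3.56 with suffix 2 and 2.95 thinned. Its muscle to adipocyte ratio (7.19) was 11.8 with no such marker UMI and 1.11 (0.0280 to 6.18) with suffix 1, on 1 UMI in 8 nuclei, which leaves its direction there unknown. The adipocyte to endothelial ratio of Myh14 (14.9) was 8.85 with no such marker UMI, 32.0 with suffix 3 and 5.77 thinned, and suffix 1 gave no value because its endothelial nuclei held no UMI. The pericyte to endothelial ratio of Myh11 (2.07) was 2.35, 2.63 and 1.45 by suffix. The Myh7 percent of sarcomeric UMIs (13.8) was 7.86 with no such marker UMI and 12.3 with suffix 1. The Myh7-led to Myh4-led ratio of Myh10 over both suffixes (18.3) was 43.6 (6.84 to 1824) with no such marker UMI. The cause of these shifts was not tested. Depth limits genes with few UMIs, such as Myh14 outside adipocytes and Myh10 in pericytes of the first matrix.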

Other observations

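Smooth muscle nuclei of the aging matrix held several genes from the lists of striated muscle genes. Myl1, the fast essential light chain, had 462 CPM there against 51.03 CPM in other gated nuclei, a ratio of 9.06 (8.36 to 9.82). The calcium pump Atp2a2 had 741 against 149.9 CPM, a ratio of 4.94 (4.66 to 5.24), and Casq2, the calcium buffer of the cardiac and slow sarcoplasmic reticulum, had 48.4 against 7.80 CPM, a ratio of 6.20 (4.85 to 7.85). Mybpc1 had a ratio of 15.5 (9.43 to 25.3) on a lower level of 16.6 CPM. Of the 6 slow fibre genes with at least 20 UMIs, 4 were at least 2-fold higher in smooth muscle, where 8.89% of genes were. Myl3 of that list and Mylpf of the light chains were at least 2-fold lower, where 32.7% were. Atp2a1, the 1 fast fibre gene with enough UMIs, had a ratio of 0.882. Against other gated nuclei, Casq2 was also at least 2-fold higher in pericytes (10.6% of genes were) and Myl1 in adipocytes (20.8% were).

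Myh6, the atrial chain and the neighbour of Myh7, had 9 UMIs in the 532 Schwann nuclei of the aging matrix and 10 in all other gated nuclei, at 7.03 and 0.264 CPM (ratio 26.7, 9.59 to 73.0), below the number of UMIs asked for in a call. In the WT and Ucp1-STX4KO matrix a single nucleus with suffix 1 and markers of several types held 80 UMIs of Myh1, all 80 of the sarcomeric UMIs in such nuclei of that library.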
